A study of Arabidopsis thaliana with 9 samples.

Results

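The genes described here had a lower transcript abundance in gun4-1 seedlings while their level in gabaculine-treated wild-type seedlings stayed near that of the untreated wild type. They are 45 probe sets, each with 1 gene symbol, out of 22746 probe sets on the ATH1 GeneChip after the control probe sets were left out. They were chosen on their measured values. The mean log2 signal of gun4-1 minus that of Col-0 was -1 or lower, the mean of GAB minus Col-0 lay within 0.3 of 0, and all 3 gun4-1 arrays were below every Col-0 and every GAB array. A few symbols that met these limits were left out by name, here IAA29 and UGT71C1. Because all 3 groups entered the choice, the differences of the 45 genes are given as a description with no test.

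The 9 arrays held RNA of whole Arabidopsis thaliana seedlings that had grown in darkness for 3 days and then in light for 6 h. The 3 Col-0 samples were untreated wild type, the 3 GAB samples were Col-0 with 10 µM gabaculine in the medium throughout, and the 3 gun4-1 samples were the untreated mutant in the Col-0 background. No sample combined the mutation with gabaculine. The mutant is represented by a single allele, and the labels do not say whether the replicates came from separate cultures. The study's general note on statistics says that experiments were repeated independently, without naming the arrays, so p-values measure the spread between these samples, which may in part be technical. The comparison asks which transcripts differ in the gun4-1 mutant and which under a chemical block of ALA formation.

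ALA (5-aminolevulinic acid) is the precursor from which plastids make chlorophyll and heme. Gabaculine inhibits the aminotransferase that forms ALA. GUN4 binds porphyrins, stimulates the Mg chelatase at the entry into the chlorophyll branch and takes part in the control of ALA formation, and gun mutants were found by their altered communication from the plastid to the nucleus.

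The arrays were close in their overall distribution, with small differences by group. Setting all arrays to the same median raised every difference of gun4-1 from Col-0 by 0.098 and of GAB from Col-0 by 0.040. The 25th percentile was 4.15 to 4.27 on the gun4-1 arrays and 4.12 to 4.17 on the other arrays. The median log2 signals of the 9 arrays lay between 6.41 and 6.57. Arrays of 1 group correlated with each other at 0.996 to 0.997 over all probe sets. Whole-seedling RNA held transcripts of green organs and of roots: RCA, the Rubisco activase, was at 14.23 to 14.39, and PYK10, a root beta-glucosidase, at 13.32 to 13.71 on all 9 arrays. In whole seedlings fewer cells of a type and less RNA per cell cannot be told apart. No probe set is named here for GUN4, so its own transcript did not serve to check the genotype labels.

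In the fit across all probe sets, 1014 were lower in gun4-1 than in Col-0, which is 4.46% of those tested, and 556 (2.44%) were higher. A call needed an adjusted p of at most 0.05 and a signal ratio under 0.667 or over 1.5. All 45 genes had this call and 44 of them were also called lower against GAB, where the share over all probe sets was 2.48%; the exception, AT3G09540, had 1 gun4-1 array well below the other two. None was called lower in GAB against Col-0, where the share was 0.690%. The limits of the choice fixed these counts to a large extent and nothing is read from them. The separation of the 3 gun4-1 arrays from the other 6 arrays was met by 10.1% of all probe sets. It removed none of the named probe sets that met both limits on the means.

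A minority of the strongly lowered genes met the limit on GAB. Of 13513 probe sets with 1 symbol, 181 had a difference of -1 or lower in gun4-1. Among these, 120 were also lower in GAB by 0.3 or more, 14 were higher in GAB by 0.3 or more, and 47 lay between the limits, which became 45 after the 2 symbols were left out. Both differences subtract the same Col-0 arrays, so nothing is read from these counts. The plot of both differences shows where the 45 genes lie among all named probe sets.

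**Figure D1:**
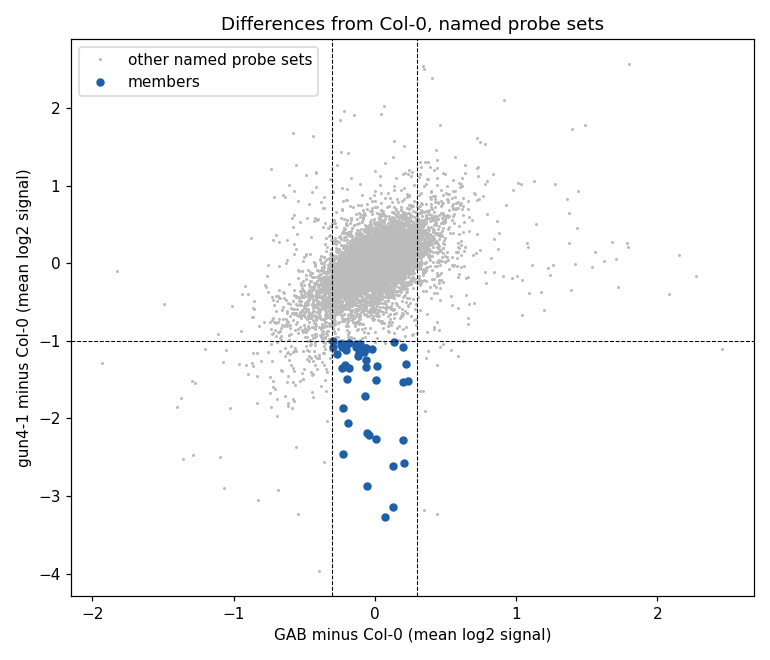
Mean log2 difference from Col-0 in gun4-1 (y axis) against that in GAB (x axis) for every probe set with 1 symbol, with dashed lines at the limits of -1, -0.3 and 0.3. The 45 chosen genes (blue) fill the lower middle field down to -3.27, and the 2 grey points that share it are IAA29 and UGT71C1.

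Over the 45 genes the difference between gun4-1 and Col-0 ran from -3.27 to -1.005 with a median of -1.29, which is a signal ratio of 0.408. The median over all probe sets was 0.02. The difference between GAB and Col-0 ran from -0.30 to 0.24 with a median of -0.07. It was below 0 for 32 of the genes and above 0 for 13, while 50.0% of all probe sets were below 0. The choice used both differences, which subtract the same Col-0 arrays, so nothing is read from this split. Against GAB directly, gun4-1 was lower by a median difference of -1.17, with a range of -3.35 to -0.71.

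The Col-0 and GAB arrays overlapped for 37 of the 45 genes. All 3 GAB arrays were below all 3 Col-0 arrays for WAG2, AT5G52540, AT3G09540, AT1G23410, AT5G49555 and AT5G11240, that is for 6 genes, against 12.9% of all probe sets. They were above them for AT1G43910 and AT2G27420, that is for 2 genes, against 11.1% of all probe sets.

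**Figure D2:**
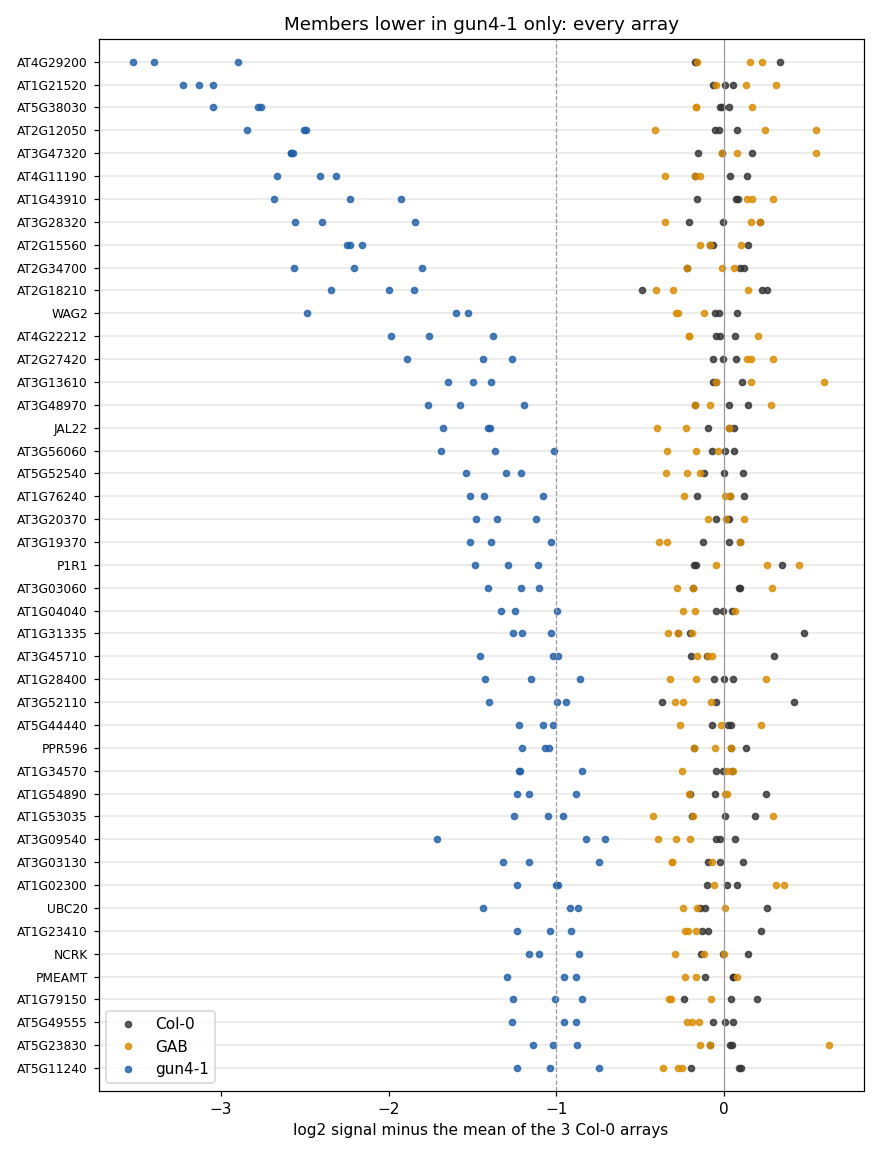
Log2 signal of each of the 9 arrays minus the mean of the 3 Col-0 arrays (x axis) for each of the 45 genes (y axis), ordered by the difference in gun4-1. In each row the 3 gun4-1 points (blue) lie to the left of the Col-0 (dark grey) and GAB (orange) points, and the gap to the nearest of these runs from 0.31 for AT3G09540 to 2.99 for AT1G21520.

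With the annotation used here, a function can be given for only a few of the genes. For 37 of the 45 the array annotation and RefSeq give a locus and no gene name, and no role is assigned to them here; among all named probe sets 88.3% have only a locus as symbol. The other 8 are WAG2, F6'H1, JAL22, P1R1, PPR596, UBC20, NCRK and PMEAMT, and they belong to different processes.

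Signalling was represented by a pair of kinases. WAG2 is a protein kinase that phosphorylates PIN proteins, the carriers that export auxin from cells. Its log2 signal was 7.43, 7.40 and 7.53 in the 3 Col-0 samples, 7.17, 7.33 and 7.18 in GAB, and 5.85, 5.93 and 4.97 in gun4-1. The groups of gun4-1 and the others did not overlap, and the third gun4-1 array lay far below the remaining gun4-1 arrays. The mean fell from 7.46 ± 0.07 (SD, n = 3) in Col-0 to 5.58 ± 0.53 (SD, n = 3) in gun4-1, a difference of -1.87 with an SE of 0.19 from the fit across all probe sets. NCRK is a receptor-like kinase known to interact with small GTPases of the ROP type. It was among the dimmer genes of the group, with log2 signals of 6.23, 6.10 and 6.39 in Col-0, 6.12, 5.95 and 6.24 in GAB, and 5.14, 5.38 and 5.08 in gun4-1. The difference was -1.04 with an SE of 0.11.

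A pair of genes encode enzymes of small-molecule synthesis. F6'H1, listed on the array as AT3G13610, is the feruloyl-CoA 6'-hydroxylase that leads to scopoletin and related coumarins, which roots secrete under iron deficiency. Its log2 signals were 7.10, 7.27 and 7.12 in Col-0, 7.12, 7.32 and 7.76 in GAB, and 5.67, 5.52 and 5.78 in gun4-1. The third GAB array was the highest of all 9, and gun4-1 was at a signal ratio of 0.351 to Col-0 (difference -1.51, SE 0.14). PMEAMT is an N-methyltransferase of the pathway from phosphoethanolamine to phosphocholine, and so serves the supply of choline for membrane lipids. With log2 signals of 9.66, 9.83 and 9.84 in Col-0, 9.55, 9.61 and 9.86 in GAB, and 8.49, 8.90 and 8.83 in gun4-1, it was one of the brighter probe sets, and the difference was -1.04 (SE 0.12).

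JAL22, a jacalin-related lectin of a family that binds carbohydrates, had the highest signal of the 45. Its log2 signals were 12.18, 12.34 and 12.30 in Col-0, 12.05, 11.88 and 12.31 in GAB, and 10.87, 10.60 and 10.88 in gun4-1. Even in gun4-1 its signal lay far above the array medians, and the ratio to Col-0 was 0.355 (difference -1.49, SE 0.11).

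UBC20 and PPR596 stand for protein and RNA processing. UBC20 is a ubiquitin-conjugating enzyme, which carries ubiquitin to the ligase that tags proteins for breakdown. Its log2 signals were 7.94, 7.97 and 8.34 in Col-0, 7.92, 7.84 and 8.09 in GAB, and 7.17, 6.65 and 7.22 in gun4-1, with a difference of -1.07 (SE 0.15). PPR596 is a pentatricopeptide repeat protein, a class that binds and processes RNA in mitochondria and plastids. It was at 7.49, 7.80 and 7.71 in Col-0, 7.49, 7.71 and 7.61 in GAB, and 6.46, 6.60 and 6.62 in gun4-1, with a difference of -1.11 (SE 0.10), so that its 3 gun4-1 arrays lay closer together than those of UBC20. P1R1, for which no role is given here, was at 7.36, 7.37 and 7.89 in Col-0, 7.50, 7.80 and 7.99 in GAB, and 6.26, 6.43 and 6.06 in gun4-1.

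The largest differences were those of genes that the annotation used here names only by locus, 11 of which had a difference of -2 or lower. They were picked out after their values were seen. AT4G29200 had log2 signals of 8.17, 7.66 and 7.66 in Col-0, 7.67, 8.06 and 7.99 in GAB, and 4.93, 4.31 and 4.43 in gun4-1. The Col-0 and GAB arrays were interleaved and the gun4-1 arrays lay more than 2 log2 units lower, a difference of -3.27 (SE 0.18) and a signal ratio of 0.103. AT1G21520 was at 6.86, 6.98 and 6.93 in Col-0, 6.88, 7.06 and 7.24 in GAB, and 3.70, 3.88 and 3.79 in gun4-1. The difference was -3.14 (SE 0.10), and here all 3 gun4-1 values lay in the lowest 25% of the signals on their arrays.

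AT5G38030 was at 6.93, 6.99 and 6.94 in Col-0, 6.79, 6.79 and 7.12 in GAB, and 3.90, 4.19 and 4.18 in gun4-1, a difference of -2.86. AT2G12050 is listed by RefSeq as a transcribed pseudogene, and its probe set, like that of AT1G34570, is of a type that can match several transcripts, so that its signal may not be of this gene alone. It was at 6.73, 6.62 and 6.60 in Col-0 and at 3.81, 4.16 and 4.14 in gun4-1, while its GAB arrays spread widely at 6.24, 7.20 and 6.89. AT3G47320, listed as a pseudogene, was at 6.08, 6.23 and 6.41 in Col-0, 6.23, 6.32 and 6.79 in GAB, and 3.67, 3.66 and 3.66 in gun4-1. Its 3 gun4-1 values were the closest to each other of the group (SD 0.008), and all lay in the lowest 25% of their arrays. Across the 45 genes, 2 had all 3 gun4-1 values in that range, 5 had at least 1 there, and none had a Col-0 or GAB value there. The lowest 25% of the gun4-1 arrays ended at 4.15 to 4.27, and differences that reach it are bounded by the dim end of the array.

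Of the remaining 6 genes with a difference of -2 or lower, AT1G43910 had 1 gun4-1 value in the lowest 25% of its array and the other 5 had none there. AT4G11190 was the brightest of them and fell from a mean of 10.00 ± 0.16 in Col-0 and 9.77 ± 0.11 in GAB to 7.53 ± 0.18 in gun4-1 (SD, n = 3 each), a difference of -2.46. AT1G43910 (-2.28), AT3G28320 (-2.27), AT2G15560 (-2.21), AT2G34700 (-2.19) and AT2G18210 (-2.06) had Col-0 means of 6.89 to 7.41 on the log2 scale. They differed in how closely their mutant arrays grouped. AT2G15560 was at 5.13, 5.05 and 5.04 in gun4-1 with an SD of 0.05, while AT1G43910 was at 4.20, 4.66 and 4.96 with an SD of 0.38.

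A further 5 genes had differences between -2 and -1.5: WAG2 and F6'H1, described above, and AT4G22212 (-1.71), AT2G27420 (-1.53) and AT3G48970 (-1.51). AT4G22212 and AT3G48970 were bright genes. The former was at 10.38, 10.49 and 10.40 in Col-0, 10.21, 10.21 and 10.63 in GAB, and 9.04, 8.66 and 8.44 in gun4-1. For the latter the values were 10.58, 10.78 and 10.89 in Col-0, 10.58, 10.67 and 11.03 in GAB, and 9.56, 9.18 and 8.98 in gun4-1. In both, the highest GAB array was above every Col-0 array.

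Between -1.5 and -1.2 lay 8 genes: JAL22, P1R1, AT3G56060 (-1.35), AT5G52540 (-1.35), AT1G76240 (-1.34), AT3G20370 (-1.32), AT3G19370 (-1.31) and AT3G03060 (-1.24). AT3G20370 showed the most even values of these in Col-0, at 11.04, 11.12 and 11.11, with 11.10, 11.00 and 11.21 in GAB and 9.74, 9.61 and 9.97 in gun4-1. AT3G03060 was the dimmest in this range, with a Col-0 mean of 6.17 ± 0.16 and a gun4-1 mean of 4.93 ± 0.15 (SD, n = 3 each).

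The other 21 genes had a difference above -1.2. Beside PPR596, UBC20, NCRK and PMEAMT these were AT1G04040 (-1.19), AT1G31335 (-1.17), AT3G45710 (-1.15), AT1G28400 (-1.15), AT3G52110 (-1.11), AT5G44440 (-1.11), AT1G34570 (-1.10), AT1G54890 (-1.09), AT1G53035 (-1.09), AT3G09540 (-1.08), AT3G03130 (-1.08), AT1G02300 (-1.08), AT1G23410 (-1.06), AT1G79150 (-1.04), AT5G49555 (-1.03), AT5G23830 (-1.01) and AT5G11240 (-1.005). They covered a wide range of signal. AT1G04040 was at 10.82, 10.78 and 10.88 in Col-0, 10.59, 10.66 and 10.90 in GAB, and 9.50, 9.58 and 9.83 in gun4-1. AT1G34570 was at 5.95, 5.90 and 5.86 in Col-0, 5.65, 5.92 and 5.96 in GAB, and 4.68, 5.06 and 4.69 in gun4-1, and had the lowest Col-0 mean of the 45.

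In this range single arrays weighed more. AT3G09540 was at 6.83, 6.95 and 6.85 in Col-0, 6.59, 6.48 and 6.67 in GAB, and 6.06, 6.17 and 5.16 in gun4-1. The third gun4-1 array carried much of its difference, and its nearest gun4-1 and GAB arrays were only 0.31 apart, the smallest gap of the group. AT1G31335 was at 7.88, 7.95 and 8.63 in Col-0, 7.89, 7.83 and 7.96 in GAB, and 6.90, 6.95 and 7.12 in gun4-1. Without Col-0 replicate 3, its highest array, the difference was -0.93 and thus missed the limit of -1.

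The limits cut through a continuum. The members nearest to the limit in gun4-1 were AT5G11240 (-1.005) and AT5G23830 (-1.01), and just outside it lay AT1G11700 (-0.9999) and AT4G23680 (-0.9991). Nearest to the limit in GAB were AT5G11240 (-0.30) and AT3G09540 (-0.29) inside, and AT1G27030 (-0.30) and AT3G15650 (-0.31) outside.

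The Col-0 means of the 45 genes ran from 5.90 to 12.27 on the log2 scale with a median of 7.35, against a median of 6.55 over all probe sets. The replicates of these genes spread more than those of a typical probe set. Their median SD was 0.127 over the Col-0 arrays, 0.152 over those of GAB and 0.202 over those of gun4-1, against 0.0969, 0.0950 and 0.113 over all probe sets. In gun4-1 the SD was above 0.3 for 10 of the genes, with WAG2 and AT3G09540 at the top. No gun4-1 array was the lowest throughout, since the lowest value fell on the first array for 18 genes, on the second for 13 and on the third for 14. Over all probe sets the shares were 37.9%, 38.2% and 23.9%. Among the GAB arrays the third held the highest value for 28 of the 45, against 29.7% of all probe sets. The median of the genes' values on that array lay 0.11 above their group means, compared with -0.01 over all probe sets.

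To measure these differences on arrays that had not served for the choice, the same limits were applied to 6 arrays at a time, leaving out 1 replicate number in each group, and the 3 arrays left out were then read. Without the first replicates 44 genes were chosen, 32 of which are among the 45. On the left-out arrays gun4-1 was below Col-0 for 44 of the 44, with a median of -1.20, and 31 had a difference of -1 or lower. The choice without the second replicates gave 64 genes (37 of the 45). All 64 were below Col-0 with a median of -1.15, and 37 of the 64 had a difference of -1 or lower. The choice without the last replicates gave 59 genes (38 of the 45). All 59 were below Col-0 with a median of -1.26, and 48 of the 59 had a difference of -1 or lower. Over all probe sets the shares below Col-0 on the same arrays were 45.3%, 49.8% and 42.5%, and the shares at -1 or lower were 1.5%, 1.72% and 2.18%. Each left-out comparison holds 1 array a group, so no test was made of it. The limits had been set with earlier results of these data known, so the left-out arrays were not fully independent of the choice. The genes chosen share their arrays and are not replicates, so the counts of genes are a description.

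The level in GAB was less steady on the left-out arrays. The median difference of GAB from Col-0 was -0.14 without the first replicates, -0.18 without the second and 0.10 without the third. It stayed within 0.3 of 0 for 34 of 44, 38 of 64 and 32 of 59 genes. In each of the 3 comparisons gun4-1 was below GAB for every gene chosen.

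**Figure D3:**
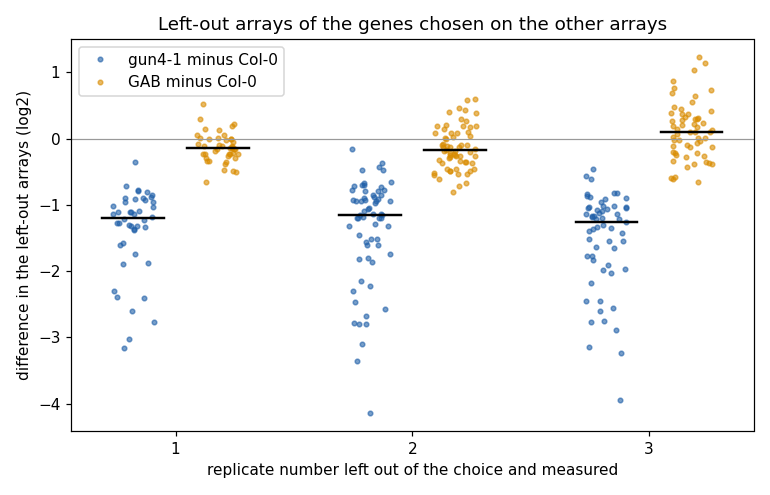
Log2 difference from Col-0 in gun4-1 (blue) and in GAB (orange) on the 3 arrays of the replicate number left out of the choice (x axis), 1 point for each gene chosen on the other 6 arrays, with black bars at the medians. The gun4-1 medians are -1.20, -1.15 and -1.26 and all gun4-1 points lie below 0, while the GAB points lie on both sides of 0.

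AT1G79150 was the gene with a second named probe set, which did not enter the choice. It was at 6.70, 7.06 and 7.10 in Col-0, 6.61, 6.89 and 6.70 in GAB, and 6.19, 6.42 and 6.48 in gun4-1. Its gun4-1 arrays were again below all others, but the difference was -0.59 (SE 0.12, adjusted p = 0.0409 by limma with Benjamini-Yekutieli adjustment), against -1.04 for the chosen probe set. The call was lost under 11 of the alternative settings, each single array left out other than Col-0 replicate 1 among them, with an adjusted p of up to 0.234.

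The 45 genes lay on all 5 chromosomes, 15 on chromosome 1, 7 on chromosome 2, 13 on chromosome 3, 3 on chromosome 4 and 7 on chromosome 5. Chromosome 1 thus held 33.3% and chromosome 3 held 28.9% of them, against 25.7% and 20.4% of all named probe sets, a difference that was not tested. No 2 of them were within 3 genes of each other in the gene order of RefSeq. GUN4 lies on chromosome 3, and within 1000 genes of it on either side were 2 of the 45 (4.44%), against 4.43% of the named probe sets. The nearest, AT3G56060, had 413 genes between it and GUN4. By RefSeq 43 of the 45 encode proteins, against 92.6% of the named probe sets that it matched. The median gene length of all 45 was 1803 bases, against 2117 bases over all named genes.

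Genes beside the 45 were not used in the choice. For 38 named probe sets of the genes next to them, the median difference between gun4-1 and Col-0 was 0.04. Of these, 6 were called lower by limma (15.8%) and none higher, while 3.94% of all named probe sets were called lower and 2.09% higher. At an unadjusted p under 0.05, 10 of the 38 were lower (26.3%) and 7 higher (18.4%), against 16.0% and 17.5% of all named probe sets. Within 3 genes on either side, 11 of 109 were lower (10.1%) and 2 were higher. The difference between these shares was not tested, and neither was cross-hybridization between neighbouring genes of like sequence. Without Col-0 replicate 3, 3 of the 38 were called lower.

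AT5G38020, next to AT5G38030, was by far the most reduced of the neighbours. Its log2 signals were 7.68, 8.20 and 7.90 in Col-0, 7.84, 8.40 and 8.59 in GAB, and 4.53, 4.69 and 5.02 in gun4-1. The mutant was thus lower by a difference of -3.18 (SE 0.19, adjusted p = 5.68e-06 by limma), close in size to that of its neighbour, and the GAB difference of 0.35 had kept it out of the 45. AT1G80280, next to PPR596, was at 7.96, 8.10 and 8.07 in Col-0, 7.68, 7.68 and 7.74 in GAB, and 6.77, 6.77 and 6.50 in gun4-1, a difference of -1.36 (SE 0.09) in gun4-1 and -0.34 in GAB. AT5G23840, next to AT5G23830, differed by -1.04 in gun4-1 and by 0.48 in GAB, and lost its call when any single Col-0 or gun4-1 array was left out (adjusted p 0.0836 to 0.184). AT5G49560 (-0.80), AT1G28395 (-0.66) and AT1G04030 (-0.63) were the remaining reduced neighbours. AT1G28395 lost its call without Col-0 replicate 2 or 3 or gun4-1 replicate 3 (adjusted p 0.0564 to 0.0653), and AT1G04030 fell short of the fold limit without Col-0 replicate 3 (-0.57) or gun4-1 replicate 1 (-0.58), as both did with arrays centred on their median.

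At 2 or 3 genes' distance, AT3G56080 (-1.29), AT3G28310 (-1.22), AT4G11210 (-1.14), AT3G19400 (-0.91) and AT2G18220 (-0.90) were lower, and AT3G45730 (1.04) and AT1G23390 (0.89) were higher in gun4-1. AT3G56080 was also lower in GAB, by -0.96, unlike AT3G56060 near it. The call of AT3G28310 was lost without Col-0 replicate 2, gun4-1 replicate 2 or gun4-1 replicate 3 (adjusted p 0.0655 to 0.0945).

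**Figure D4:**
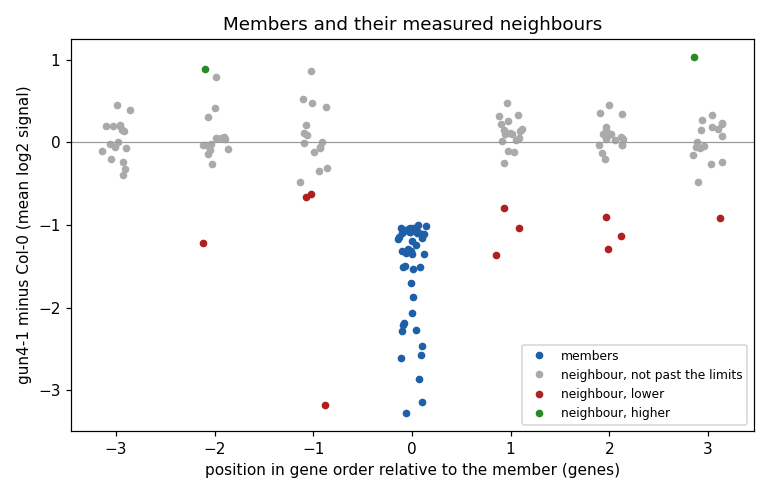
Mean log2 difference between gun4-1 and Col-0 (y axis) of the 45 genes (blue, at position 0) and of the named probe sets up to 3 genes away (x axis, in genes along the chromosome). Grey points were not past the limits of the test, red points were called lower and green points higher. The lowest neighbour is AT5G38020 at -3.18, and most other neighbours lie near 0.

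Relatives of JAL22 and PPR596 by symbol were then compared, families chosen after the members were known. Of 3 other jacalin-related lectins, JAL33 (-0.45), JAL34 (-0.37) and JAL23 (-0.21), none passed both limits of the limma call, and all 3 were lower at an unadjusted p under 0.05, as were 16.0% of all named probe sets. JAL33 and JAL34 had bright signals of 12.36 to 13.24 on all arrays, whereas JAL23, which lies 2 genes from JAL22, was at 3.62 to 3.96. PPR336, another pentatricopeptide repeat protein, was lower by a difference of -0.61 in gun4-1 and differed by -0.39 in GAB, and fell short of the fold limit without Col-0 replicate 3 and under 2 other normalizations.

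None of the 45 was among 251 loci listed for roots, photosynthesis, cell walls, cutin, hormones, light, starch and nutrient uptake. Only 35 of these loci have a named probe set here, none of them from the cutin list. IAA29 and the only root hair genes measured, EXPA7 and EXPA18, carry symbols that the choice left out. The absence of members from these lists is thus not read as a result. Of the 35, 4 were lower and 3 higher in gun4-1, against 3.94% lower and 2.09% higher of all named probe sets. Of 11 extensins and proline-rich wall proteins, AT1G26250 (-2.90) and AT3G28550 (-0.90) were lower and HRGP1 (0.68) was higher. AT1G26250 was at 7.55, 8.07 and 7.15 in Col-0, 6.33, 6.72 and 6.52 in GAB, and 4.62, 5.05 and 4.39 in gun4-1, so that it was reduced to an extent like that of the top genes of the 45 but with intermediate values in GAB. HRGP1 lost its call without any 1 Col-0 array, GAB replicate 2, or gun4-1 replicate 2 or 3 (adjusted p 0.0599 to 0.175), and AT3G28550 without Col-0 replicate 2 or 3, any 1 GAB array, or gun4-1 replicate 1 or 3 (0.0562 to 0.241). The list's median difference was 0.07, against 0.02 over all probe sets.

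Of 6 auxin and growth response genes, IAA29, an auxin-induced repressor that the choice left out by name, was lower (-1.02). Of 7 starch and sugar genes, DPE1, a plastid disproportionating enzyme of starch breakdown, was lower (-0.62). Among 3 light and clock genes, COR27 (1.25) and the bZIP factor HYH (0.61) were higher. The 3 photosynthesis genes, the 2 root hair genes, the 2 other root genes and the 1 nutrient uptake gene measured did not pass the limits, with differences from -0.20 to 0.56 and with 2 lower and 2 higher of the 8 at an unadjusted p under 0.05, against 16.0% and 17.5% of all named probe sets. Several of these calls rested on single arrays. IAA29 lost its call without Col-0 replicate 1 or 3 or gun4-1 replicate 1 or 2 (adjusted p 0.0581 to 0.0889), and HYH without Col-0 replicate 2 or 3 or gun4-1 replicate 1 or 2 (0.0539 to 0.0942). The call of DPE1 was lost without any 1 Col-0 array, GAB replicate 1 or 2, or gun4-1 replicate 1 or 2 (adjusted p 0.0695 to 0.249).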

How the data were processed

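RNA of 9 samples, 3 per group, had been hybridized to ATH1 GeneChips. The deposited values are log2 signals per probe set made by the authors with RMA (the robust multi-array average), with the Affymetrix Expression Console named in the processing notes and no version given. RMA brings the arrays close to a common distribution, so only relative differences are measured, and dim signals are compressed. The number of arrays limits the precision.

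The 64 control probe sets were left out, and 22746 remained. Of these, 13513 had 1 gene symbol in the platform annotation, 503 several and 8730 none. Gene type, order and length came from RefSeq (TAIR10.1), which matched 13436 of the named probe sets. Its coordinates are not printed.

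All 3 groups were fitted in 1 model with limma (version 3.58.1, R version 4.3.3; 6 residual and 5.91 prior degrees of freedom), with Benjamini-Yekutieli adjustment over all probe sets. Limits were an adjusted p of 0.05 and a ratio under 0.667 or over 1.5. The same step was tested on simulated data for gun4-1 against Col-0 over 22746 probe sets. It recovered 87 of 100 genes changed 2-fold and 100 of 100 changed 3-fold. The simulated noise was normal and independent between arrays and probe sets, with no shift of whole arrays. These counts therefore check the step and need not hold for the real arrays. With 3 samples against 3, an exact two-sided permutation test of 1 gene cannot go below 0.1.

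The members and lists were chosen with earlier results of these data known. Named are members with a gene name, members and probe sets next to a limit, those with a second probe set or reduced neighbours and, for lists, up to 3 genes past the limits. Genes named beyond this were chosen after their values were seen, and the patterns that put symbols in families were tightened after the data were seen. Alternatives were quantile normalization, median centring, a filter on dim probe sets, other limits, adjustments and variance models, and leaving out arrays. Promoter and protein sequences were not analysed here, and 1 gene family comparison is not reported here.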

Additional observations from a re-analysis of the deposited data

How the results depend on the processing

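The choice itself fixed that the 45 members are lower in gun4-1 with any array left out and that nearly all are called, so neither is a sign of stability. Their highest difference under the alternatives was -0.76, and 494 of 540 values were at -1 or lower. The number chosen moved more. With a gun4-1 limit of -0.8 there were 97 genes, with -1.5 there were 16, and with a GAB limit of 0.5 there were 98. Median centring, which shifts all gun4-1 differences by 0.098, gave 35 genes, 31 of them among the 45. Leaving out 1 array gave 42 to 57 genes, and leaving out a replicate number 44 to 64. With single arrays left out, the members' median in gun4-1 ran from -1.32 to -1.21 and that in GAB from -0.17 to -0.04, 805 to 1003 probe sets were lower and 502 to 561 higher, and 8 to 11 genes within 3 genes of a member and 3 to 6 of those next to one were lower. The listed genes called lower numbered 1 to 4 and those called higher 1 to 3. Median centring gave 768 probe sets lower against 1014 and 859 higher against 556, so that more were higher than lower. Quantile normalization gave 926 lower and 609 higher. Against 4 listed genes lower and 3 higher, quantile normalization gave 2 lower and 5 higher, the fit of only the 2 groups compared 2 lower and 1 higher, and median centring 6 higher. The cause was not tested. Same-numbered arrays of Col-0 and gun4-1 deviated together with correlations of 0.15, 0.13 and -0.07. For Col-0 and GAB these were 0.26, 0.02 and 0.15, and for GAB and gun4-1 0.25, 0.16 and -0.01. The first replicates correlated most in each pair of groups. The correlations were low and the labels name no pairs, so the numbers were not taken to pair the samples. With the replicate block 1062 probe sets were lower and 581 higher over the whole array.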

Other observations

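Beside the 45 genes, 61 probe sets met the same limits but could not be described as genes, 54 of them unnamed here and 7 with several symbols. Their differences between gun4-1 and Col-0 ran from -3.53 to -1.01 with a median of -1.26, and the median in GAB was -0.09. The lowest corresponds to a signal ratio of 0.0867, below that of any of the 45.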
